A study of Arabidopsis thaliana with 9 samples.

Results

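Cold and dehydration genes of Arabidopsis thaliana were followed across wild type and mutant seedlings through 6 members: CBF3 (also DREB1A, AT4G25480), RD29A (LTI78, AT5G52310), COR15B (AT2G42530), XERO2 (LTI30, AT3G50970), ERD10 (LTI29, AT1G20450) and COR47 (RD17, AT1G20440). Each was read by 1 probe set of the array, so the group made up 6 of 22746 probe sets tested. The platform annotation named 3 of them (COR15B, XERO2 and COR47). The study's list of genes changed in cyp78a5,7 and amp1-13 held 5, and it alone named CBF3, RD29A and ERD10. The members were thus chosen from measured values of these same arrays, with results of all comparisons known. Their differences between cyp78a5,7 and wild type, and between cyp78a5,7 and amp1-13, are therefore given as a description with a standard error and no test. For amp1-13 against wild type an adjusted p is printed, but that result was known at the choice too. It is no independent support.

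RNA came from whole 10-day-old seedlings, hybridised to 9 Affymetrix ATH1 arrays. The groups were wild type Col-0, the double mutant cyp78a5,7, which carries T-DNA insertions in the cytochrome P450 genes CYP78A5 and CYP78A7, and amp1-13, a strong mutant allele of AMP1 in Col-0, with 3 biological replicates of each. AMP1 encodes a carboxypeptidase-like membrane protein that limits leaf formation and shoot meristem size, and the study compared how far loss of the CYP78A genes alters the transcriptome in the way loss of AMP1 does. All seedlings grew in liquid Murashige and Skoog medium with 1% sucrose and 1% DMSO at 26 °C under 16 h of light per day, and the labels name no cold, drought or abscisic acid treatment. Each mutant is 1 line, and the amp1-13 arrays had also served a study of the compound hyperphyllin.

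In the cold, CBF (DREB1) transcription factors accumulate and bind the CRT/DRE element in the promoters of cold-regulated (COR) genes, which raises freezing tolerance. Drought and salt act on many of the same genes through DREB2 factors and through abscisic acid, whose ABRE-binding factors use a separate promoter element, and RD29A is the classic promoter that carries both kinds of element. Dehydrins are hydrophilic late embryogenesis abundant (LEA) proteins with a conserved lysine-rich segment, and they protect membranes and enzymes when cells lose water.

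The measured unit was the signal intensity as deposited, in linear units, every array having been scaled to a trimmed mean of 100.0. Median signals of the arrays lay between 31.2 and 39.0, and 34.5% to 38.3% of probe sets lay under 16, the offset added before the log2. Arrays of the same genotype correlated at r = 0.964 to 0.991 over all probe sets and arrays of different genotypes at 0.910 to 0.971. Of CYP78A5, CYP78A7 and AMP1, only CYP78A7 had a named probe set, with mean signals of 11.2 ± 1.65 in wild type, 27.8 ± 8.29 in the double mutant and 24.3 ± 10.6 in amp1-13 (SD, n = 3). It was not lower in the double mutant, and since where its probes lie with respect to the insertion is not given in the sources used here, it does not check the genotype. Of 5 leaf markers, CA1 and RCA had a named probe set, and their summed signal was 2185 to 3101 in wild type, 3264 to 4073 in the double mutant and 4877 to 6085 in amp1-13. The means in the same order were 377, 1184 and 2042 for CA1 and 2289, 2458 and 3529 for RCA. In the double mutant RCA overlapped wild type. Of 6 root markers, EXPA7 and NRT2.1 were named, with sums of 71.5 to 79.6, 99.6 to 329 and 66.1 to 114 in the same order. The 2 genes differed, with means of 46.5, 53.3 and 61.2 for EXPA7 and 28.6, 152.8 and 26.2 for NRT2.1. EXPA7 overlapped wild type in both mutants. CLV3, the 1 shoot meristem marker of 5 with a name, was at 0.560 to 0.705, 0.441 to 5.17 and 1.39 to 10.1, and none of 5 seed storage genes was named. The part of organ makeup in the results below was not tested, and in whole seedlings fewer cells of a type and less RNA per cell cannot be told apart.

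The 6 members followed 3 patterns. RD29A, XERO2, ERD10 and COR47 were high in cyp78a5,7, CBF3 was low in both mutants, and COR15B was low in amp1-13 and overlapped wild type in cyp78a5,7. In the deposited signal all 3 cyp78a5,7 arrays lay above all 3 wild type arrays for 4 of 6 members, against a background of 14% of all probe sets, and below them for 1, CBF3, against 19.8%. In amp1-13 all arrays lay above wild type for no member (15.5% of all probe sets) and below it for 3, CBF3, RD29A and COR15B, against 15.3%. The choice of the members used the first of these comparisons, so nothing is read from its count.

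**Figure D1:**
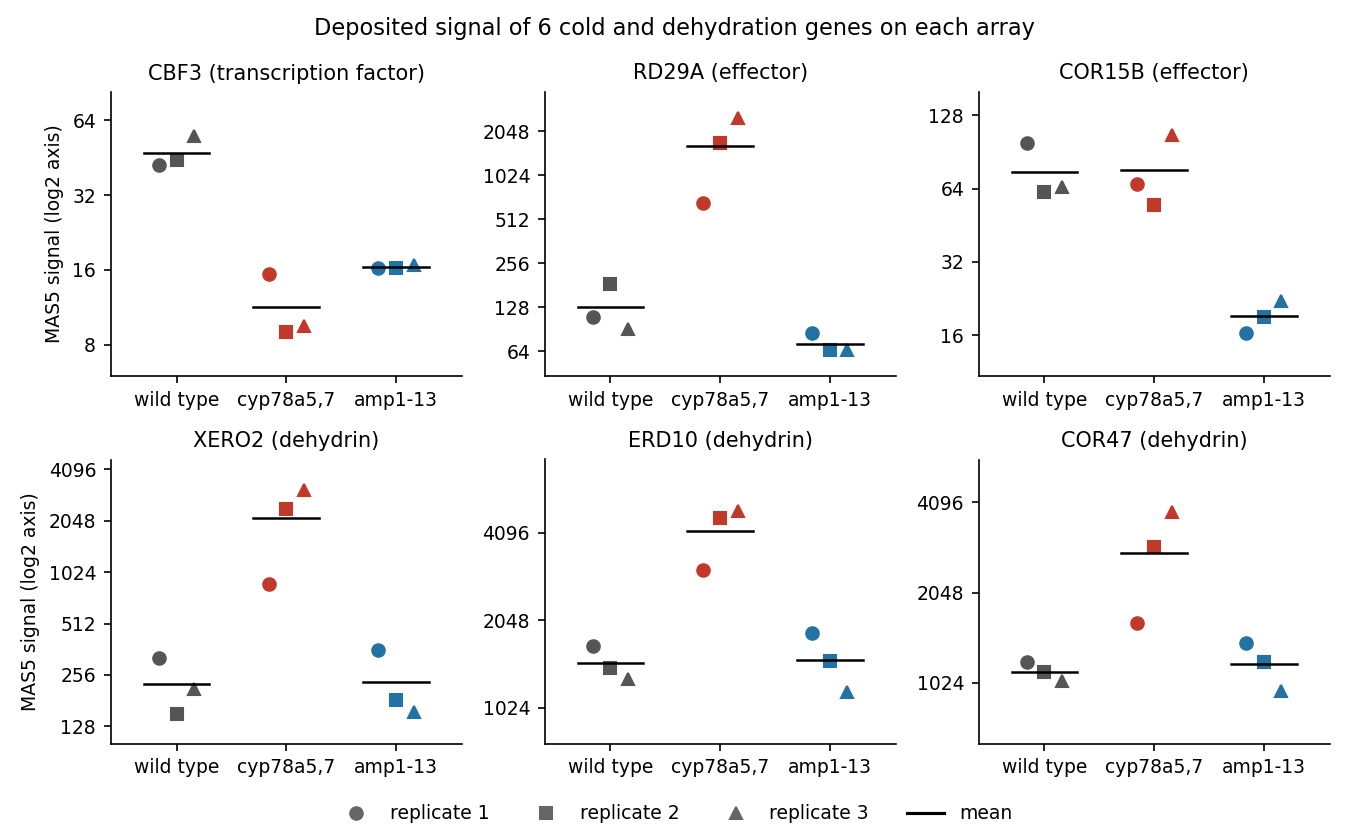
Signal as deposited (y, linear values on a log2 axis whose range differs between panels) of the 6 members by genotype (x), with 1 point per array, shaped by replicate, and a line at the mean. RD29A, XERO2, ERD10 and COR47 stand above wild type on all 3 cyp78a5,7 arrays, CBF3 is below wild type on all 6 mutant arrays, and COR15B is below it on all 3 amp1-13 arrays and overlaps it in cyp78a5,7.

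CBF3 encodes the transcription factor at the head of the pathway. Its signal was 42.2, 44.4 and 55.5 on the wild type arrays, 15.4, 8.95 and 9.51 in cyp78a5,7 and 16.2, 16.2 and 16.8 in amp1-13. All 6 mutant arrays lay below every wild type array, and all 3 cyp78a5,7 arrays lay below all 3 of amp1-13. The means were 47.3 ± 7.13, 11.3 ± 3.58 and 16.4 ± 0.310 (SD, n = 3). The mutant signals lay around the offset of 16 and no detection calls were used here, so no ratio is given. Differences given as log2 below are of signal + 16 after quantile normalisation, and they understate the change of a gene as dim as CBF3, whose signal was above that offset on 6 of the 9 arrays. On this scale CBF3 was -1.25 (SE 0.12) from wild type in cyp78a5,7 and -1.04 (SE 0.12) in amp1-13. The fall in amp1-13 had an adjusted p of 0.00317 from limma and a 95% interval of -1.32 to -0.76, and CBF3 was chosen with that result known. The difference of cyp78a5,7 from amp1-13 was -0.21, with an interval of -0.49 to 0.07.

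RD29A, a hydrophilic stress protein whose promoter is the standard reporter of cold and drought signalling, had the widest difference of the 6 members. The wild type arrays read 110.2, 184.5 and 90.0, those of cyp78a5,7 663.6, 1693 and 2539, and those of amp1-13 85.6, 64.7 and 65.1. Every cyp78a5,7 array was above wild type and every amp1-13 array was below it. Mean signals were 128 ± 49.8, 1632 ± 939 and 71.8 ± 12.0 (SD, n = 3), which put cyp78a5,7 at 12.7 times wild type and 22.7 times amp1-13. The log2 difference from wild type was 3.39 (SE 0.45) in cyp78a5,7. In amp1-13 it was -0.76 (SE 0.45) with an adjusted p of 0.321 from limma and a 95% interval of -1.77 to 0.26. That SE pools the spread of all 3 genotypes, the widely spread cyp78a5,7 arrays included. With only wild type and amp1-13 fitted, the SE was 0.22 and the adjusted p 0.0759 from limma, so RD29A was not called there either.

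COR15B encodes a small chloroplast protein that protects membranes during freezing, and it departed from the other effectors. Its signal was 98.5, 62.1 and 65.1 in wild type, 66.9, 55.0 and 106.5 in the double mutant and 16.3, 19.0 and 22.1 in amp1-13. Wild type and cyp78a5,7 overlapped, while all amp1-13 arrays lay below both. The means were 75.2 ± 20.2 and 76.2 ± 26.9 in wild type and cyp78a5,7 and 19.1 ± 2.88 in amp1-13 (SD, n = 3), the last just above the offset. The log2 difference was -0.032 (SE 0.23, 95% interval -0.55 to 0.49) in cyp78a5,7. In amp1-13 COR15B fell by 1.43 on the log2 scale (SE 0.23, 95% interval -1.95 to -0.91), with an adjusted p of 0.00856 from limma. COR15B was chosen with this fall known, so the p is no independent support.

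The 3 dehydrins among the members, XERO2, ERD10 and COR47, were all higher in cyp78a5,7 and near wild type in amp1-13. XERO2, a dehydrin that binds membranes, read 319.8, 152 and 211 in wild type, 870.1, 2385 and 3120.3 in the double mutant and 358, 182 and 156 in amp1-13. The cyp78a5,7 arrays were all above wild type, and amp1-13 overlapped it. The means were 228 ± 85.2, 2125 ± 1147 and 232 ± 109.7 (SD, n = 3), a ratio of cyp78a5,7 to wild type of 9.34 and a log2 difference of 3.11 (SE 0.51).

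ERD10 and COR47 encode closely related acidic dehydrins and are adjacent genes in the RefSeq gene order. ERD10 gave 1670.3, 1407 and 1289.8 in wild type, 3036, 4587 and 4862 in the double mutant and 1850.4, 1483 and 1159 in amp1-13. Its cyp78a5,7 arrays lay above every array of the other genotypes, with a mean of 4162 ± 985 against 1456 ± 195 in wild type and 1497 ± 346 in amp1-13 (SD, n = 3), 2.86 times wild type. The log2 difference in cyp78a5,7 was 1.75 (SE 0.21). COR47 gave 1206, 1109.9 and 1036 in wild type, 1627, 2898 and 3788 in the double mutant and 1388, 1207 and 964 in amp1-13. All cyp78a5,7 arrays again exceeded the rest, with means of 1117 ± 85.2, 2771 ± 1086 and 1187 ± 213 in the 3 genotypes (SD, n = 3), 2.48 times wild type and a log2 difference of 1.43 (SE 0.29). Signals of different probe sets are not set against each other here, because probes differ in how they bind, and the probe sets were not checked for binding to related genes.

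In amp1-13 the dehydrins could not be told from wild type at this replication. The log2 differences were -0.0038 for XERO2, 0.17 for ERD10 and 0.21 for COR47, with adjusted p of 0.998, 0.676 and 0.712 from limma. Their 95% intervals ran from -1.15 to 1.15, from -0.31 to 0.66 and from -0.45 to 0.88, so the interval of XERO2 leaves room for a change of over 2-fold either way. These intervals rest on a spread pooled over all 3 genotypes. With only wild type and amp1-13 fitted, the SE fell from 0.51 to 0.36 for XERO2 and from 0.29 to 0.16 for COR47. For ERD10 it went from 0.21 to 0.18, and none of these dehydrins was called. The differences of cyp78a5,7 from amp1-13 were 3.12 for XERO2, 1.58 for ERD10 and 1.22 for COR47, beside 4.15 for RD29A and 1.40 for COR15B.

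**Figure D2:**
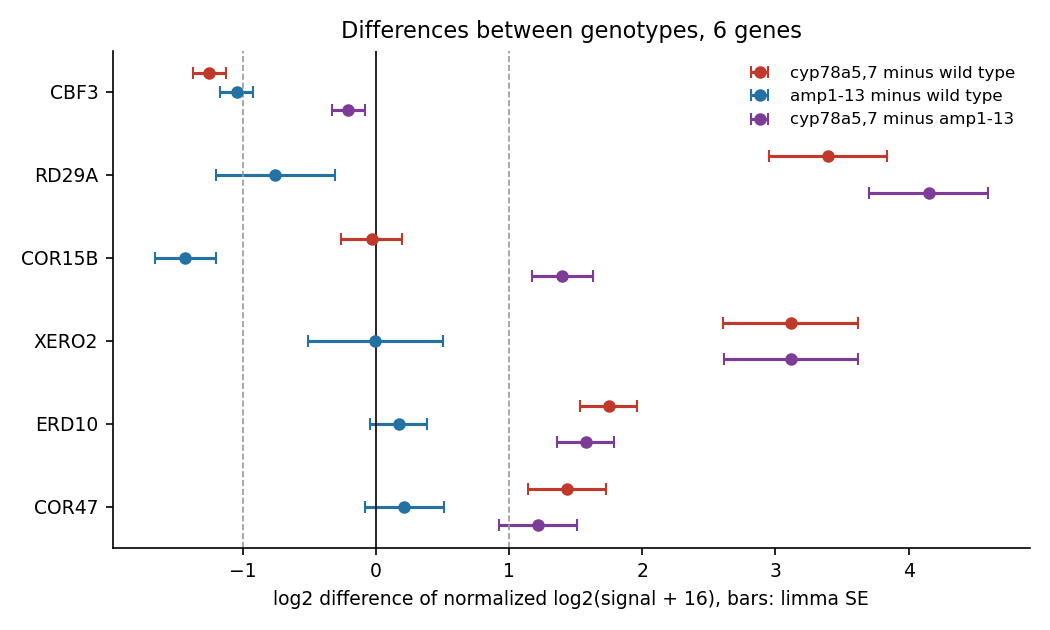
Log2 differences of signal + 16 after quantile normalisation (x) for the 6 members (y) in cyp78a5,7 minus wild type, amp1-13 minus wild type and cyp78a5,7 minus amp1-13, with bars for the standard error from limma and dashed lines at 2-fold. In cyp78a5,7 against wild type the values run from -1.25 for CBF3 to 3.39 for RD29A, and in amp1-13 CBF3 and COR15B lie beyond the dashed line at -1.04 and -1.43.

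Of the 6 members, 2 were called in amp1-13 with limma at an adjusted p below 0.05 plus a difference of 2-fold or more, CBF3 and COR15B, both lower. Over all probe sets 2.6% were called in that comparison, 0.796% lower and 1.8% higher. These members were proposed with the amp1-13 result known and both comparisons share the wild type arrays, so the count is no independent support. Without wild type replicate 3, CBF3 lost its call, at -0.94 (adjusted p = 0.0158 from limma).

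The 4 members that were high in cyp78a5,7 varied together between arrays. Over the 9 arrays the 6 pairs among RD29A, XERO2, ERD10 and COR47 correlated at r = 0.929 to 0.969, and after the genotype means were removed at 0.698 to 0.942. These points share the arrays and their scaling, and with 9 of them the values are a description. CBF3 ran opposite to these members, with r between -0.695 for ERD10 and -0.50 for RD29A. COR15B correlated at 0.353 with CBF3, at 0.582 with RD29A and between 0.342 and 0.478 with the dehydrins.

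For each of these 4 members, cyp78a5,7 replicate 1 was lowest and replicate 3 highest. The highest of the 3 arrays stood at 3.83 times the lowest for RD29A, 3.59 times for XERO2, 2.33 times for COR47 and 1.60 times for ERD10. That order held for 19.3% of all probe sets and for 41.4% of the 995 probe sets called higher in cyp78a5,7. It also held for 11 of 19 called genes of the pathway and organ marker lists outside the members. NRT2.1, a root nitrate transporter, had the same order in cyp78a5,7, at 78.4, 140.0 and 240.1. The part of this spread, or of root makeup, in the values of the members was not tested. Leaving out each array in turn gave log2 differences in cyp78a5,7 of 2.96 to 3.97 for RD29A, 2.73 to 3.70 for XERO2, 1.64 to 1.96 for ERD10 and 1.14 to 1.80 for COR47.

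To place the members among the rest of the pathway, 10 lists with 119 genes were read. Of these 41 had a named probe set, 35 of them outside the members. The study's list alone named 20 of the 35. Since it was drawn from these arrays, its genes are not independent evidence of a direction in either mutant. Of the 35, 17 rose and 1 fell in cyp78a5,7, where 7.02% of all probe sets were called, 4.37% higher and 2.64% lower. Their median log2 difference was 1.07 against -0.02 for all probe sets. Among the 15 genes named by the annotation, 1 rose, ZAT10, and none fell by limma. Of these 15, 6 were under the offset on all 9 arrays and 1 was above it on a single array. The log2 differences of those dim genes are held near 0. The brighter annotated genes SIZ1, COR15A, COR27, COR28, HIRD11, AT4G38410 and GI were not called in cyp78a5,7 either. The 20 owe their names to a list drawn from these arrays, so their difference in calls from the 15 is not read further. Genes named by the annotation can also stand on that list, as XERO2 and COR47 do. In amp1-13, 4 of the 35 rose and 2 fell, where 2.6% of all probe sets were called, 1.8% higher and 0.796% lower. The study's list alone named 3 of those that rose and the 2 that fell. The median of the 35 in amp1-13 was 0.26 against -0.01 for all probe sets.

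**Figure D3:**
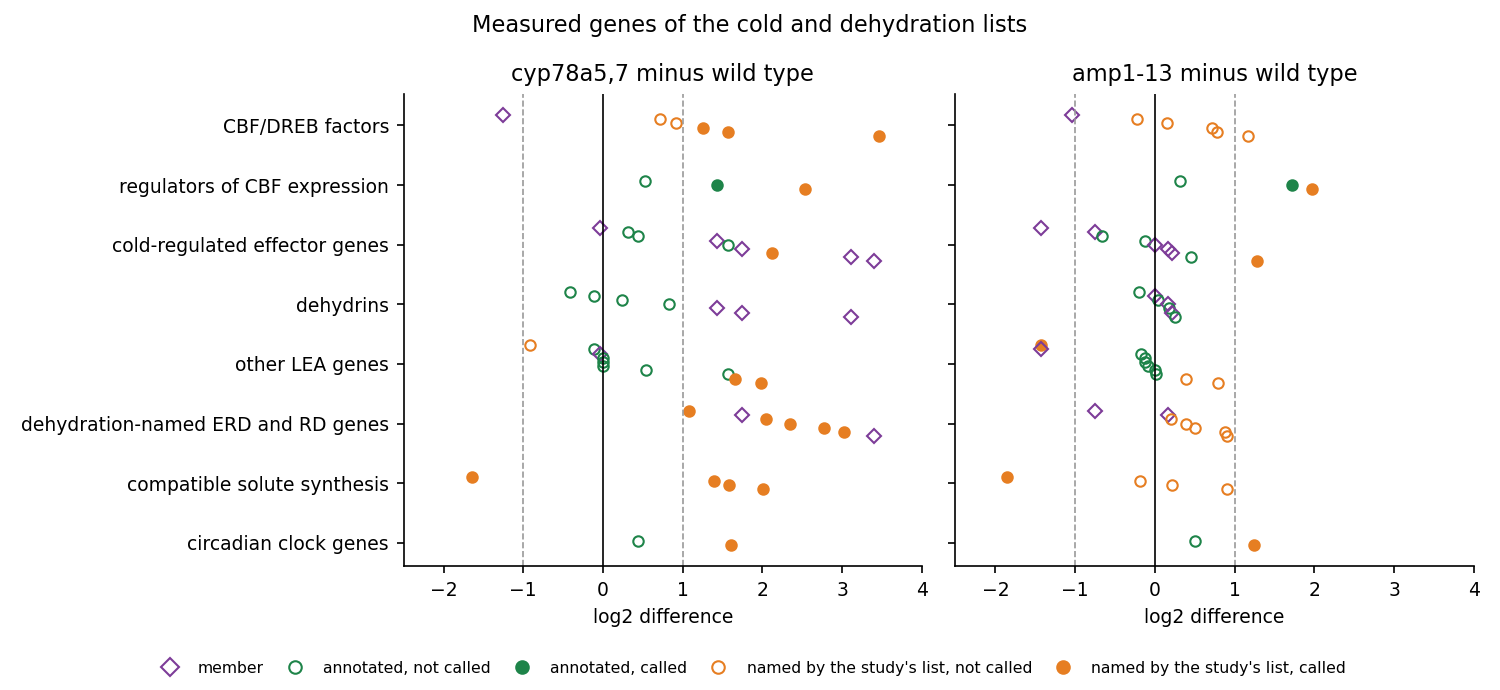
Log2 difference of signal + 16 after quantile normalisation (x) for each gene with a named probe set in the pathway lists (y), in cyp78a5,7 and in amp1-13 against wild type. Circles are genes outside the members, filled where called and coloured by the source of the name, open diamonds are members whether called or not, a gene of several lists appears in each, and dashed lines mark 2-fold. Of the circles called in cyp78a5,7, 1 gene, ZAT10, was named by the annotation.

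Among the CBF/DREB factors, 5 genes other than CBF3 were named, all by the study's list, and DDF1, DEAR1 and DREB2A rose in cyp78a5,7. DDF1, a DREB1-type factor that delays flowering and dwarfs plants when overexpressed, read 14.6, 2.99 and 3.61 in wild type, 429.6, 405.8 and 70.3 in the double mutant and 110.5, 20.5 and 15.5 in amp1-13. Its replicate order in cyp78a5,7 was the opposite of that of RD29A. The log2 difference was 3.47 (SE 0.71, adjusted p = 0.00906 from limma) in cyp78a5,7 and 1.17 (adjusted p = 0.333) in amp1-13, where all 3 arrays lay above wild type in the deposited signal and replicate 1 stood highest. DREB2A, which acts in drought and heat, rose from 54.1 ± 17.02 to 155 ± 36.9 in cyp78a5,7 (SD, n = 3, log2 1.25, adjusted p = 0.00706 from limma), and DEAR1, a DREB protein with a repression motif, rose by 1.57 (adjusted p = 0.00206). In amp1-13 no gene of this list was called by limma, and 2 of the 5 had an unadjusted p under 0.05, DREB2A being called without wild type replicate 1 (1.00, adjusted p = 0.0427). CBF1 and CBF2, the tandem neighbours of CBF3, had no named probe set and were not analysed here.

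Of the regulators of CBF expression, 3 of 16 genes were named and 2 rose in both mutants. MYB15, a repressor of the CBF genes, rose from a mean of 30.8 ± 32.1 to 229 ± 44.9 in the double mutant and 164 ± 90.5 in amp1-13 (SD, n = 3). ZAT10, a zinc finger repressor induced by cold, salt and drought, rose from 481 ± 139 to 1274 ± 348 and 1544 ± 365. The log2 differences were 2.53 and 1.97 for MYB15 (adjusted p = 0.00746 and 0.0352 from limma) and 1.43 and 1.72 for ZAT10 (adjusted p = 0.00682 and 0.00792). The MYB15 call in amp1-13 was lost on leaving out any of 6 arrays, wild type replicate 2 or 3, cyp78a5,7 replicate 2 or any amp1-13 array, with adjusted p of 0.0588 to 0.129. Among 2 clock genes with a name, PRR5, a clock repressor, rose in cyp78a5,7 and amp1-13 by 1.61 and 1.25 (adjusted p = 0.00326 and 0.0188 from limma), the latter call failing when wild type replicate 1, or any 1 amp1-13 array, was left out (0.0557 to 0.0664).

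COR15A, the tandem sister of COR15B, did not pass the test in either mutant. Its signal was 15.8, 9.13 and 16.8 in wild type, 25.7, 60.1 and 215.6 in the double mutant and 11.4, 15.3 and 10.9 in amp1-13. The cyp78a5,7 arrays were all above wild type but spread widely, and the log2 difference of 1.56 (SE 0.51) had an adjusted p of 0.0568 from limma, while amp1-13 gave -0.13 (adjusted p = 0.924). Without cyp78a5,7 replicate 1, COR15A was called higher in cyp78a5,7, at 2.13 (adjusted p = 0.00797 from limma), and it was also called under 3 other settings (adjusted p = 0.0199 to 0.0467). Of the 4 cold-regulated effectors with a name outside the members, COR15A among them, 1 was called in each mutant, PGIP1, an inhibitor of fungal polygalacturonases, at 2.11 in cyp78a5,7 (adjusted p = 0.000844 from limma) and 1.28 in amp1-13 (0.0145). In amp1-13 PGIP1 missed the threshold when wild type replicate 1 or 3, or amp1-13 replicate 1 or 2, was left out (0.0515 to 0.0633). COR27, a cold- and clock-regulated gene, gave 0.31 in cyp78a5,7 and -0.66 in amp1-13, with adjusted p of 0.458 and 0.140.

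The other 4 dehydrins with a name, all named by the annotation, were not called by limma in either mutant. Of the 4, 3 in cyp78a5,7 and 1 in amp1-13 had an unadjusted p under 0.05. HIRD11, a small dehydrin that binds metals, had mean signals of 3818 ± 476 in wild type, 2388 ± 318 in the double mutant and 2875 ± 53.6 in amp1-13 (SD, n = 3). Its log2 difference in cyp78a5,7 was -0.41 (adjusted p = 0.0424 from limma), under 2-fold. AT4G38410 read 20.4, 22.7 and 30.1 in wild type, 31.2, 60.6 and 92.2 in the double mutant and 37.3, 33.5 and 27.0 in amp1-13. All its cyp78a5,7 arrays lay above wild type with replicate 1 lowest, and the log2 difference was 0.82 (adjusted p = 0.0591 from limma), or 1.15 (0.00403) and called without that replicate. AT2G21490 and AT4G39130 were under the offset on all arrays. Dehydrins with the names RAB18 and XERO1 had no named probe set and were not analysed here.

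Of 9 other LEA genes with a name, 2 rose in cyp78a5,7. LEA14 went from 856 ± 174 to 2988 ± 394 and SAG21, a mitochondrial LEA protein linked to oxidative stress and senescence, from 1340.5 ± 610.1 to 3329 ± 427 (SD, n = 3), by 1.99 and 1.66 on the log2 scale (adjusted p = 0.000343 and 0.00251 from limma). LEA7 went the other way. It fell in amp1-13 from 71.3 ± 6.04 to 18.1 ± 2.32 (log2 -1.43, adjusted p = 0.00119 from limma). In cyp78a5,7 its mean was 31.4 ± 6.88 and its log2 difference -0.91 (adjusted p = 0.00172), under 2-fold with 16 added. LEA7 was called lower in cyp78a5,7 without an offset (-1.23, adjusted p = 0.00865 from limma) and without wild type replicate 2 (-1.01, 0.00120). Of the 9, 4 were under the offset on all arrays and 1 was above it on a single array, which holds the median of the list near 0.

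All 5 named genes of the early responsive to dehydration (ERD) and responsive to desiccation (RD) series outside the members rose in cyp78a5,7, and all 5 came from the study's list. The highest were ERD9, a glutathione transferase, at 3.03 (adjusted p = 0.0112 from limma), ERD7 at 2.77 (adjusted p = 0.000132) and ERD4, a membrane protein, at 2.34 (adjusted p = 0.000422). ERD7 read 327, 295 and 293 in wild type, 1596, 2144 and 2467 in the double mutant and 447, 296 and 326 in amp1-13. RD26, a NAC transcription factor induced by drought and abscisic acid, and ERD6, a sugar transporter, rose by 2.05 and 1.07, and these were added to the named genes after their values had been seen. In amp1-13 none of the 5 was called by limma, 2 had an unadjusted p under 0.05, and ERD7 stood at 0.20 (adjusted p = 0.560), while ERD4 was called without wild type replicate 2 (1.11, adjusted p = 0.00733).

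Genes of compatible solute synthesis moved in both directions, and all 4 with a name came from the study's list. ADC2, which makes the polyamine precursor agmatine from arginine, rose by 2.00 in cyp78a5,7, BAM3, a chloroplast amylase of starch breakdown, by 1.58 and RS5, a raffinose synthase, by 1.40 (adjusted p = 0.000967, 0.00395 and 0.0143 from limma). RS5 missed the threshold when wild type replicate 1 or 3, or cyp78a5,7 replicate 2, was left out (0.0510 to 0.0546). GOLS2, a galactinol synthase that supplies raffinose synthesis, fell in both mutants, from 63.1 ± 13.3 to 10.4 ± 7.97 and 6.98 ± 5.09 (SD, n = 3), by log2 -1.64 and -1.86 (adjusted p = 0.00266 and 0.00410 from limma). Of 15 genes of abscisic acid synthesis and ABRE-binding factors none had a named probe set, so that route was not analysed here.

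**Figure D4:**
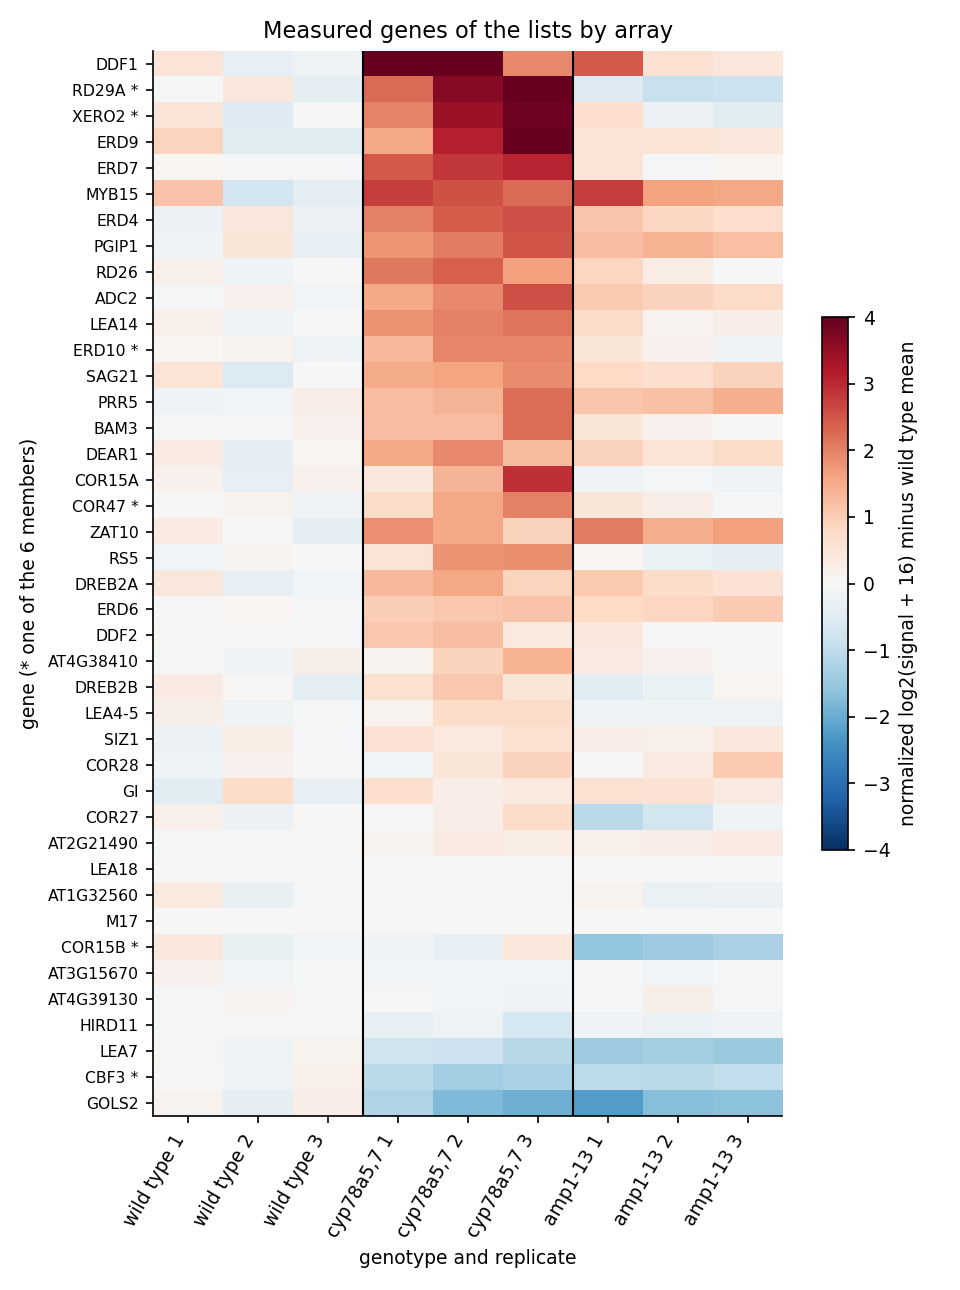
Log2 of signal + 16 after quantile normalisation on each of the 9 arrays (columns, grouped by genotype), less the mean of the wild type arrays, for the 41 genes of the lists with a named probe set (rows, in order of their difference in cyp78a5,7), with the colour scale ending at 4 log2 units and a star for each member. RD29A, XERO2, ERD10 and COR47 are high on the cyp78a5,7 arrays and least so on replicate 1, and GOLS2, LEA7 and CBF3 are low on the arrays of both mutants.

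The direct comparison of the mutants called 8 of the 35 list genes higher in cyp78a5,7 than in amp1-13 and none lower by limma, where 3.92% of all probe sets were called, 2.15% higher and 1.76% lower. They were LEA14, ERD4, ERD7, ERD9, RD26, RS5, BAM3 and ADC2, all named by the study's list alone. That list was drawn from these same arrays, so the count and direction are no independent evidence. The median over the 35 was 0.65 and that over all probe sets was -0.0042. Of the 15 named by the annotation none was called, with a median of -0.011, and 6 of them were under the offset on every array. None of the CBF/DREB factors and none of the dehydrins outside the members was called in the direct comparison, with 4 of 5 and 1 of 4 at an unadjusted p under 0.05. DDF1 stood at 2.298 (adjusted p = 0.0733 from limma) and was called without cyp78a5,7 replicate 3 (0.0174), without amp1-13 replicate 1 (0.0398) and without the 30% dimmest probe sets (0.0227). Without cyp78a5,7 replicate 3, DDF2, DREB2B and DEAR1 were called as well, at 1.01, 1.05 and 1.00, and DREB2B also without amp1-13 replicate 3, at 1.08.

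The probe sets with 1 gene whose pattern was most like the mean of the 6 members, after each member was standardised, were AT4G18280 (r = 0.987), AT3G15010 (0.985), AT1G66450 (0.979), AT4G11440 (0.979), AT5G62360 (0.975) and AT3G54980 (0.973), over 9 arrays. The signal of AT4G11440 was under the offset on all of them. That mean profile was 0.05, -0.17 and -0.17 in wild type, 0.37, 0.80 and 1.19 in the double mutant and -0.51, -0.73 and -0.82 in amp1-13. It averages members of 3 different patterns, and its lowest values fell in amp1-13, where CBF3, RD29A and COR15B were below wild type.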

How the data were processed

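Signal intensities on a linear scale were deposited for 9 ATH1 arrays. The authors made them with MAS5 (version not given in the sources used here), scaling each array to a trimmed mean of 100.0. The authors' own tests used RMA values in ArrayStar, which were not analysed here, as summarised signals cannot give RMA.

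Of 22810 probe sets, 64 controls were left out. To the signals 16 was added, log2 was taken and the 9 arrays were quantile normalised. Models with genotype as the only term were fitted to all 9 arrays with limma 3.58.1 in R 4.3.3 (6 residual and 2.69 prior degrees of freedom), two-sided, with Benjamini-Hochberg adjustment over 22746 probe sets. A call required both an adjusted p below 0.05 and a difference of 2-fold or more. Signals of genes are given as deposited. Plots were made in Python 3.11.15 (matplotlib 3.10.9). The fit was tested on simulated data.

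The annotation gave 1 gene for 13513 probe sets, the study's list of genes changed in cyp78a5,7 for a further 820, 503 had several genes and 7910 no name here. Members and lists were chosen with earlier results of these data known. Named genes were the members, their tandem and sister genes, up to 3 called genes of each list in each direction and comparison with wild type, and the 6 probe sets closest to the mean member profile. For a gene with several probe sets the brightest on average was used.

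After removal of genotype means, arrays of the same replicate number correlated at -0.119 to 0.161, so the numbers were not treated as pairs. Alternatives were the values as deposited, centring on the 75th percentile, offsets of 0 and 64, omission of the 30% dimmest probe sets, fits of the compared genotypes only, the replicate block, a variance trend, annotated names only, and leaving out each array. The number of arrays, 3 per genotype, limits the precision. Promoter motifs and protein sequences were not analysed here.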

Additional observations from a re-analysis of the deposited data

Results flagged for a closer look

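The following log2 differences of cyp78a5,7 minus amp1-13 were marked because the 2 mutants differed from each other in the direct limma comparison. All 8 genes were named by the study's list alone, which was drawn from these same arrays. Their adjusted p are therefore no independent evidence. ERD7 differed by 2.58 (adjusted p = 0.000804), LEA14 by 1.59 (0.00174), RD26 by 1.66 (0.00461) and ERD4 by 1.47 (0.00514). BAM3 differed by 1.36 (0.0131), RS5 by 1.58 (0.0154), ADC2 by 1.09 (0.0208) and ERD9 by 2.53 (0.0384). All 3 cyp78a5,7 arrays were above all 3 amp1-13 arrays for each of these 8 genes. They were picked by their call in this same comparison, so the separation adds no support. The share of all probe sets separated in this way was not counted. The call of ERD9 was lost on leaving out any of 6 arrays, wild type replicate 3, cyp78a5,7 replicate 2 or 3 or any amp1-13 array (adjusted p = 0.0594 to 0.118). That of BAM3 was lost without amp1-13 replicate 2 or 3 (0.0556 to 0.0575), that of RS5 without cyp78a5,7 replicate 2 or amp1-13 replicate 2 or 3 (0.0614 to 0.0670), and that of ADC2 without cyp78a5,7 replicate 2 or 3 or amp1-13 replicate 2 or 3 (log2 0.81 to 1.14).

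RD29A was marked because every cyp78a5,7 array was above and every amp1-13 array below all wild type arrays, with a difference between the mutants of 4.15. This difference was not tested, since RD29A was chosen on it.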

How the results depend on the processing

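With an offset of 64 in place of 16, calls went from 1596 to 774 in cyp78a5,7, from 591 to 242 in amp1-13 and from 891 to 411 between the mutants. Called members in amp1-13 went from 2 to 0, although limma gave both an adjusted p under 0.05 (CBF3 -0.51, 0.00486; COR15B -0.77, 0.0243) and 2 of 6 an unadjusted p under 0.05, and called list genes there went from 6 to 1. With values as deposited 1 member was called in amp1-13, CBF3 being at -0.96 (adjusted p = 0.00377). Without an offset CBF3 was -2.13 in cyp78a5,7 and -0.48 from amp1-13, and with an offset of 64 it was -0.59 in cyp78a5,7. COR15B was 2.04 and 0.75 between the mutants under the same pair of settings. With annotated names only, 1 list gene was called in cyp78a5,7 and 1 in amp1-13, against 18 and 6. Among named list genes, GOLS2 lost its calls in both mutants without an offset and with 64 (log2 -3.79 to -0.80), DREB2A in cyp78a5,7 and LEA7 in amp1-13 with 64 (0.86 and -0.76), and ERD6 in cyp78a5,7 with values as deposited (0.94) or centred on the 75th percentile (0.90). Leaving out each array gave 1294 to 1975 calls in cyp78a5,7, 326 to 923 in amp1-13 (the lowest without wild type replicate 3 and the highest without replicate 2) and 553 to 1270 between the mutants, 1 to 2 members called in amp1-13, 17 to 20 list genes called in cyp78a5,7 and 3 to 7 in amp1-13. With the replicate block, 1586, 579 and 827 probe sets were called, and CBF3 and COR15B kept their calls in amp1-13 (adjusted p = 0.00700 and 0.0146 from limma), while between the mutants ERD9 lost its call (0.0747) and DDF1 gained one (0.0291). No called member value changed sign, and adjusted p in amp1-13 over all alternatives were 0.00113 to 0.0200 for CBF3, 0.00185 to 0.0404 for COR15B and 0.0759 to 0.528 for RD29A. Dim signals near the offset, CBF3 in the mutants above all, limit these values.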

Other observations

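Genes beside the members differed in how they were expressed. CYP96A4, next to RD29A in the RefSeq gene order (TAIR10.1), rose by 2.02 on the log2 scale in cyp78a5,7 (adjusted p = 0.00179 from limma) and gave -0.18 in amp1-13 (0.756), and it was named by the study's list. AT1G20430, on the side of COR47 away from ERD10, was at -0.88 and -0.93 in the mutants (0.0129 and 0.0204), under 2-fold. ZAR1, an immune receptor 2 genes from XERO2, rose in cyp78a5,7 and amp1-13 by 2.31 and 1.301 (0.000132 and 0.00317).

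Single members had near matches in pattern over the 9 arrays, looked up after the values had been seen. For CBF3, AT2G46640 had r = 0.995. For COR15B, AT4G30650 had r = 0.971 and signals of 1338, 839 and 1185 in wild type, 791, 1011 and 1568 in cyp78a5,7 and 333, 315 and 431 in amp1-13. For XERO2 the closest were GSTU6, a glutathione transferase, at 0.993 and, after AT4G22610 (0.992), CYP94B1, which oxidises jasmonate conjugates, at 0.991. For ERD10 MSRB9, a methionine sulfoxide reductase, was closest (0.988), and for COR47 ATBFRUCT1, a cell wall invertase (0.996).

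Of the genes on the study's list for cyp78a5,7, members left out, 76 carry the term response to cold and 84 response to water deprivation. In the present fit 63 and 68 of them were called higher in cyp78a5,7, a direction the list had selected. Of all 1897 genes listed, members included, 909 were called higher there. In amp1-13, 17 and 16 were called higher (22.4% and 19%) and 2 and 4 lower (2.63% and 4.76%). Of all listed genes 10.8% were called higher and 5.8% lower in amp1-13, and of all probe sets 1.8% and 0.796%. Both comparisons share the wild type arrays, no test was made and nothing is read from these counts, and the term text was shortened for 309 genes and missing for 339.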
